A study of Mus musculus with 18 samples.

Results

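The Zscan4 family, Zfp352 and the Tcstv family are mouse genes whose transcripts are made in a short burst at the 2-cell stage. They were followed here in 18 single 2-cell embryos through 5 of the 28815 probe sets of an Affymetrix Mouse Gene 1.0 ST array. The 5 were all the probe sets whose annotated symbols are Zscan4a to Zscan4f, Zfp352, Tcstv1 or Tcstv3 and nothing else. Of these, 3 probe sets were each annotated to 5 genes at once, Zscan4a, Zscan4b, Zscan4c, Zscan4d and Zscan4f, so levels of the single Zscan4 genes cannot be told apart. Zfp352 and Tcstv3 had 1 probe set each, and 0 probe sets named Zscan4e or Tcstv1.

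The 18 embryos came from natural matings of wild-type mothers, all in a 129SVE background (129S6/SvEvTac). The 9 Parg(110)-/+ embryos had Parg(110)-/- fathers PargA, PargB and PargC, with 3 embryos for each father. The 9 WT embryos had wild-type fathers, named here WT1, WT2 and WT3, with 3 embryos each. This grouping of the WT embryos was read from the first number of their titles, and the methods of the study do not state it. Parg encodes the glycohydrolase that degrades poly(ADP-ribose) chains. The Parg(110)-/+ embryos carry 1 Parg allele that lacks exons 2 and 3. PargB-1 denotes embryo 1 of father PargB, and so on. The mutation came through the father, so the embryo's own genotype and the state of the sperm that made it cannot be told apart. The ages of the mice and the hours at which embryos were collected are not given in the sources used here. The RNA of each embryo was amplified (NuGen WT-Ovation One-Direct) before 1 array was hybridized with it. Values are log2 RMA (robust multichip average) values, on which a difference of 1 is a doubling, and a level on this scale is comparable between embryos for the same probe set but not between probe sets.

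The mouse embryo takes over transcription from the stored maternal RNA at the 2-cell stage, and a set of genes and retroviral elements is then switched on and soon off again. ZSCAN4 proteins carry a SCAN domain and zinc fingers and are known for their part in telomere maintenance, and in embryonic stem cells they mark the rare cells that return to a 2-cell-like state. Zfp352 encodes another zinc finger protein of this stage, Tcstv1 and Tcstv3 encode small proteins of a 2-cell-specific family, and the homeodomain protein DUX is a known activator of the program.

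In the RefSeq annotation of GRCm38.p6 the 6 Zscan4 genes lie in a cluster at chr7:10794241-11402318, where Zscan4a is annotated as a transcribed pseudogene, Zscan4e as a pseudogene and the others as protein coding. Zfp352 lies at chr4:90218820-90225687, Tcstv1 at chr13:119893387-119894785 and Tcstv3 at chr13:120316862-120318261. Promoter windows were held for 5 of the 9 genes. The following stretches upstream of the annotated starts of the Zscan4 genes are shown to let the copies, which the 3 probe sets do not separate, be compared. They are genomic sequence before the transcripts and not what the probes read. They are 95 bases each, at chr7:10905057-10905151 (minus strand) for Zscan4b, chr7:11005621-11005715 (plus) for Zscan4c, chr7:11166189-11166283 (minus) for Zscan4d and chr7:11397814-11397908 (plus) for Zscan4f, and the capitals mark the letters TATAAA on which the windows were aligned.
Zscan4b: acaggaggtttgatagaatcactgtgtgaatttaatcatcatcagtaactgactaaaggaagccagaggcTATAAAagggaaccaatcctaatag
Zscan4c: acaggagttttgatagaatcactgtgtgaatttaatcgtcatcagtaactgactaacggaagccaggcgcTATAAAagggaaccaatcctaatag
Zscan4d: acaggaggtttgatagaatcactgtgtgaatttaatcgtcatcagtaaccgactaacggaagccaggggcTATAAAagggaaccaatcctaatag
Zscan4f: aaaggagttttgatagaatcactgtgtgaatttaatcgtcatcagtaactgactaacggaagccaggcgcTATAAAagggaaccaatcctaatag
Zscan4c and Zscan4f differed at 1 of the 95 bases, and Zscan4b and Zscan4f, the least alike of the 6 pairs, were identical at 89. TATAAA, searched on both strands, was found once in the 250 bases before the start of each of these 4 genes and in 12.4% of the 32851 promoter windows of that length in the table.

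The upstream region of Zfp352 was unlike these. All 250 bases before its annotated start, chr4:90218570-90218819 on the plus strand, are shown because most of the window is an array of a repeated unit. The capitals mark TAATCC, letters that homeodomain proteins of the OTX type are known to bind. The motif was chosen after the sequence was read.
Zfp352: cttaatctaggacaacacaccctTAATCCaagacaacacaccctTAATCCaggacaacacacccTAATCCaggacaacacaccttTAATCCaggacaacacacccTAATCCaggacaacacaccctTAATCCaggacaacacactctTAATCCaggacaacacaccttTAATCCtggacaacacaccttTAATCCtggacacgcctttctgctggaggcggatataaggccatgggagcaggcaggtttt
TAATCC stood 9 times in this window, on the gene's own strand and 20 or 21 bases apart, from -227 to -61 counted from the annotated start. Searched on both strands, it was found in 6.25% of all promoter windows, and no other window of the table held it more than 4 times. TATAAA was not among the letters of the Zfp352 window, though TATAAG, which differs in its last letter, stood near its end. TAATCC was not among the letters of the 4 Zscan4 windows. An absent motif says only that its letters are not within these 250 bases. The sequences are those of the C57BL/6J reference, whereas the embryos were of the 129SVE strain.

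The arrays were alike in level, though their medians averaged 6.48 in Parg(110)-/+ against 6.42 in WT embryos. The median log2 values of the arrays lay between 6.34 and 6.49 in WT and between 6.44 and 6.53 in Parg(110)-/+ embryos. The correlation across probe sets between arrays ran from 0.924 to 0.958. PargB-1 stood apart, with the most probe sets called of any embryo when single embryos were compared with WT. A probe set is called bright when its mean over the 18 embryos was at or above 6.47, the median of all probe set means, and all 5 probe sets followed here were bright. By this definition 14408 of the 28815 probe sets were bright, and brightness is not a detection call. Of a list of other 2-cell transient genes, 22 of 27 measured genes were bright, and so were 30 of 31 maternal oocyte genes. Of the markers of other sources of RNA, 6 of 18 for cumulus, granulosa and oviduct cells, 1 of 8 for blood cells and 7 of 15 for spermatids were bright. A lower value in 1 embryo can mean less of the transcript in each cell or fewer cells that made it, and these cannot be told apart. With 1 array for each embryo, differences in amplification or in the hour of collection cannot be told apart from them either.

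Zfp352 was the member that varied most from embryo to embryo. On the log2 scale the WT1 embryos read 8.99, 11.62 and 8.18, the WT2 embryos 11.73, 11.62 and 11.40, and the WT3 embryos 9.83, 8.35 and 10.64. The PargA embryos read 11.19, 8.17 and 11.74, the PargB embryos 11.93, 11.41 and 10.89, and the PargC embryos 10.60, 8.77 and 9.89. High and low embryos occurred in both genotypes, and the WT and Parg(110)-/+ values overlapped over nearly their whole range. From the lowest embryo, PargA-2, to the highest, PargB-1, the Zfp352 value spanned 3.76 on the log2 scale, or 13.6-fold. The SD over the 18 embryos was 1.35, above that of 97.8% of the 14408 bright probe sets, whose median SD was 0.32, and above that of 98.96% of the 1345 probe sets whose mean lay within 0.5 of its own. The spread did not come from 1 genotype, with an SD of 1.46 in WT and 1.32 in Parg(110)-/+ embryos (n = 9 each). Leaving out the lowest mutant embryo, PargA-2, brought the latter to 1.05.

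Embryos of the same father could be alike or far apart in Zfp352. The 3 embryos of WT2 lay within 0.32 of each other and were all high, whereas those of PargA spanned 3.57 and those of WT1 spanned 3.44. Father means ran in the order WT2 (11.58), PargB (11.41), PargA (10.37), PargC (9.76), WT3 (9.61) and WT1 (9.60). The SD of these means was 0.91, and the SD between embryos of 1 father was 1.25. A mean of 3 embryos varies less than 1 embryo, so these SDs are not directly comparable. The F test of limma over the 3 WT fathers gave F = 3.24 (adjusted p = 0.969), and that over the 3 Parg(110)-/- fathers an adjusted p of 0.929.

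**Figure D1:**
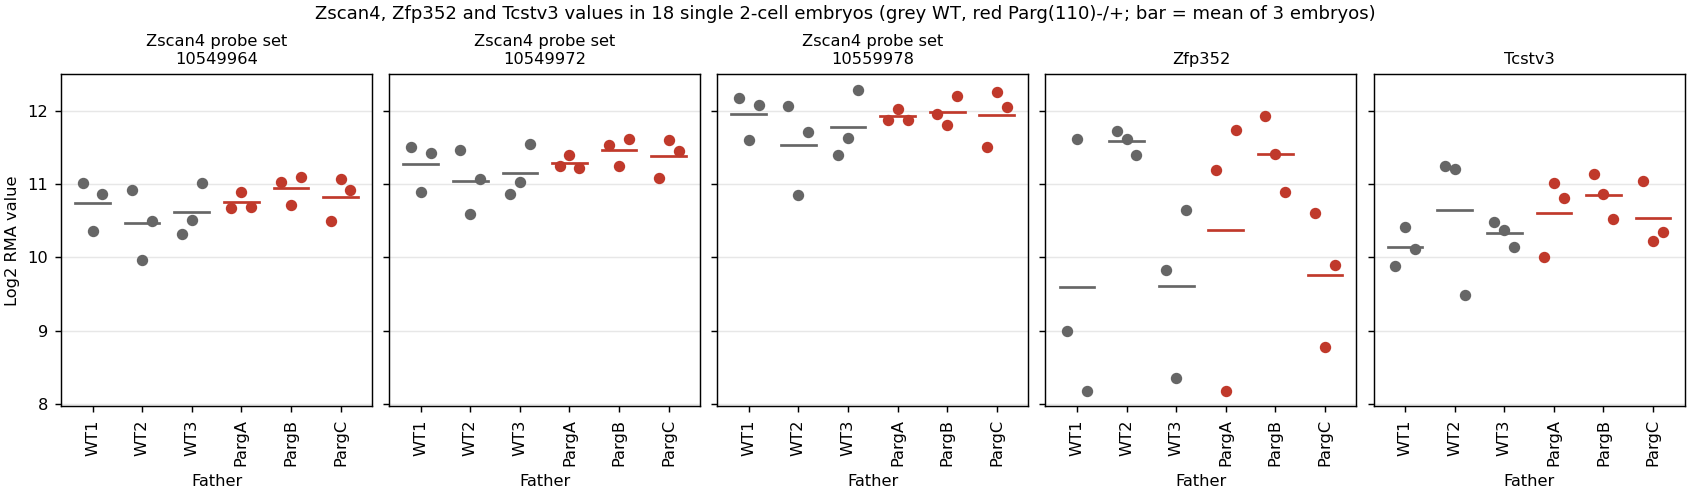
Log2 RMA values (vertical axis) of the 3 Zscan4 probe sets, Zfp352 and Tcstv3 in 18 single embryos by father (horizontal axis), with grey points for WT embryos, red points for Parg(110)-/+ embryos and a bar for the mean of each father's 3 embryos. Zfp352 runs from 8.17 to 11.93, while each Zscan4 probe set stays within 1.43 log2 units and Tcstv3 within 1.77. Heights are comparable within a panel only.

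The Zscan4 family varied less between embryos than Zfp352 in all 3 of its probe sets. By probe set 10559978, the one used below where 1 probe set stands for the family, the WT1 embryos had log2 values of 12.18, 11.60 and 12.08, the WT2 embryos 12.06, 10.85 and 11.71, and the WT3 embryos 11.40, 11.63 and 12.29. The PargA embryos had 11.88, 12.03 and 11.87, the PargB embryos 11.96, 11.81 and 12.20, and the PargC embryos 11.51, 12.26 and 12.05. All 9 Parg(110)-/+ values lay within the range of the WT values, and the lowest of all was the WT embryo WT2-2. The range over 18 embryos was 1.43 on the log2 scale (2.70-fold), and the SD of 0.36 stood above that of 54.6% of bright probe sets and of 87.7% of the 955 probe sets whose mean lay within 0.5 of its own.

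Probe set 10549964 ran from 9.97 in WT2-2 to 11.10 in PargB-3 with an SD of 0.31, and probe set 10549972 from 10.59 to 11.62 in the same 2 embryos with an SD of 0.29. Among probe sets of similar mean these SDs stood above 39.7% of 1346 and 52.6% of 1244. WT2-2 was thus the lowest embryo in all 3 Zscan4 probe sets. Their values varied together over the 18 embryos (r = 0.997, 0.965 and 0.959 for the 3 pairs), which are not independent measurements because the probe sets are annotated to the same genes. The spread of the WT embryos rested in part on WT2-2, and without it the SD in WT was 0.32 in place of 0.45 for 10559978, 0.29 in place of 0.37 for 10549964 and 0.29 in place of 0.34 for 10549972. The corresponding SDs in Parg(110)-/+ embryos were 0.22, 0.21 and 0.19 (n = 9 each), and the difference in spread was not tested.

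Father means of 10559978 ran from 11.99 (PargB) through 11.95 (WT1), 11.94 (PargC), 11.92 (PargA) and 11.77 (WT3) to 11.54 (WT2). The SD of these means was 0.17, beside 0.38 between embryos of 1 father. The 3 embryos of PargA were the most alike, within 0.16, and those of WT2 the least, 1.20 apart. WT2 was the father with the highest mean of Zfp352 and the lowest of Zscan4. Its low Zscan4 mean rested in large part on WT2-2 (10.85), beside 12.06 in WT2-1 and 11.71 in WT2-3. The F test of limma over the 3 WT fathers gave an adjusted p of 0.969 for 10559978.

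Tcstv3 was intermediate in its spread. The WT1 embryos gave log2 values of 9.88, 10.42 and 10.11, the WT2 embryos 11.25, 11.20 and 9.48, and the WT3 embryos 10.48, 10.37 and 10.14. The PargA embryos gave 9.997, 11.01 and 10.81, the PargB embryos 11.14, 10.87 and 10.53, and the PargC embryos 11.04, 10.22 and 10.35. Both the highest and the lowest embryo had the same father, WT2, and all 9 Parg(110)-/+ values lay between them. The range was 1.77 on the log2 scale (3.41-fold), and the SD of 0.50 stood above that of 70.2% of bright probe sets and of 68.9% of the 1346 of similar mean. Father means ran from 10.85 (PargB) through 10.64 (WT2), 10.60 (PargA), 10.54 (PargC) and 10.33 (WT3) to 10.14 (WT1). Their SD was 0.25, beside 0.53 between embryos of 1 father.

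**Figure D2:**
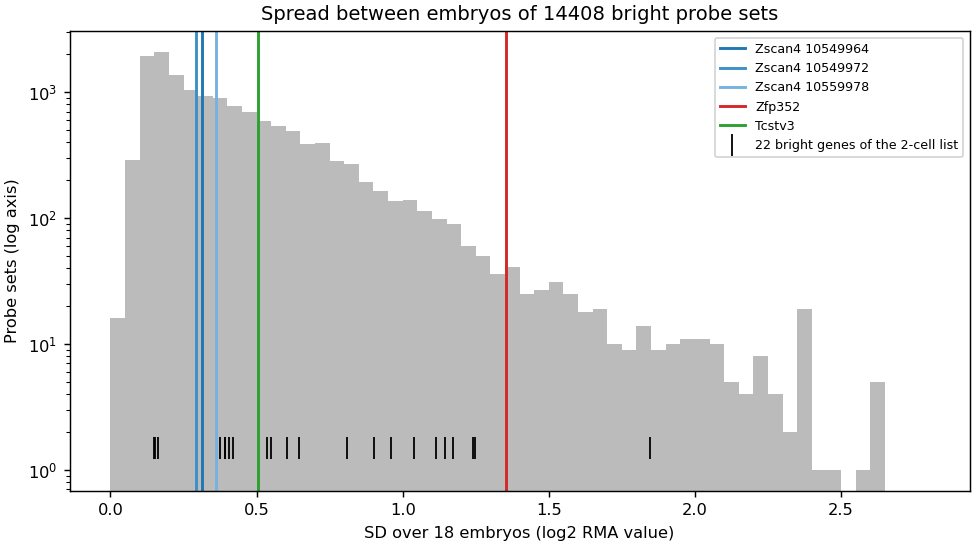
Histogram of the SD of log2 RMA values over 18 embryos (horizontal axis) for 14408 bright probe sets (vertical axis, number of probe sets, log axis), with coloured lines for the 5 probe sets followed and black ticks for the 22 bright genes of the list of other 2-cell transient genes. The 3 Zscan4 lines stand at 0.29 to 0.36, near the median of 0.32, Tcstv3 at 0.50 and Zfp352 at 1.35 in the upper tail.

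The first question of the design was whether the genes differ between embryos of wild-type and of Parg(110)-/- fathers. Of the 5 probe sets, 0 were called by limma at an adjusted p under 0.1, and of all 28815 probe sets 0% were called (3018 had an unadjusted p under 0.05, none of them among the 5). Tcstv3 averaged 10.37 ± 0.57 in WT against 10.66 ± 0.40 in Parg(110)-/+ embryos (SD, n = 9 each) and so differed by 0.29 ± 0.22 (SE) with a 95% interval from -0.18 to 0.77 (adjusted p = 0.630). The Zscan4 probe set 10559978 was at 11.75 ± 0.45 and 11.95 ± 0.22 (SD, n = 9), a difference of 0.20 ± 0.16 (SE) with an interval from -0.14 to 0.54 (limma adjusted p = 0.656). Both intervals hold 0 as well as increases larger than the SD over the 18 embryos.

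The other Zscan4 probe sets differed by 0.23 ± 0.14 (10549964, limma adjusted p = 0.543) and 0.23 ± 0.13 (10549972, adjusted p = 0.529). In all 3, 8 of the 9 Parg(110)-/+ embryos lay above the WT mean. WT2-2 weighed on these values, since without it the differences were 0.08 for 10559978, 0.15 for 10549964 and 0.16 for 10549972. Zfp352 was at 10.26 ± 1.46 in WT and 10.51 ± 1.32 in Parg(110)-/+ embryos (SD, n = 9), a difference of 0.25 ± 0.62 (SE) with an interval from -1.07 to 1.56 (limma adjusted p = 0.897), and 6 of the 9 lay above the WT mean. For this gene a change of over 2-fold in either direction is within the interval.

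The median difference of the 5 probe sets was 0.23, and that of all probe sets was 0.05, with 67.11% of all probe sets higher in Parg(110)-/+ embryos. When the array medians were made equal, the median of all probe sets moved to -0.01 and the differences were 0.14 (10559978), 0.18 (10549964), 0.17 (10549972), 0.19 (Zfp352) and 0.24 (Tcstv3). Of all probe sets, 1792 then had an unadjusted limma p under 0.05, in place of 3018. The Zfp352 difference changed its direction without WT1-3 (-0.012) and without the embryos of father WT1 (-0.085), WT3 (-0.079) or PargB (-0.20).

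**Figure D3:**
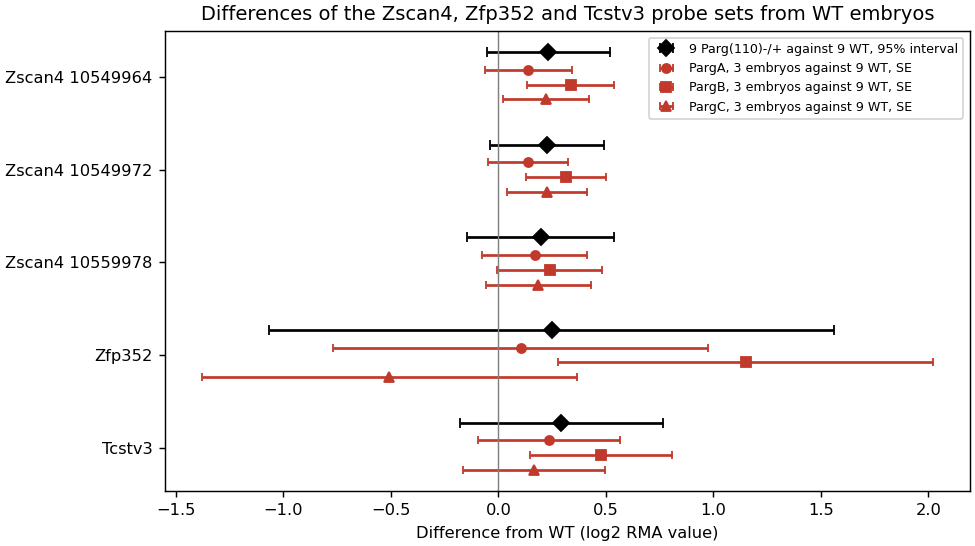
Difference from the 9 WT embryos in log2 RMA value (horizontal axis) for each of the 5 probe sets (vertical axis), in black for the 9 Parg(110)-/+ embryos with the 95% interval and in red for the 3 embryos of each Parg(110)-/- father with the SE. All 5 black intervals hold 0, and the Zfp352 estimates of the 3 fathers lie from -0.51 to 1.15.

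The embryos of each Parg(110)-/- father were then set against the 9 WT embryos. In each of the 3 comparisons 0 of the 5 probe sets were called, where 0% of all probe sets were called for PargA, 0.0139% for PargB and 0.0104% for PargC. Zfp352 differed by 1.15 ± 0.87 (SE) in the embryos of PargB (limma adjusted p = 0.608), by 0.10 ± 0.87 in those of PargA and by -0.51 ± 0.87 in those of PargC. The Zscan4 differences ran from 0.14 to 0.34 over the 3 probe sets and 3 fathers, and the Tcstv3 differences were 0.24 (PargA), 0.48 (PargB) and 0.17 (PargC). For all 5 probe sets the embryos of PargB had the highest estimate, and the smallest adjusted p was 0.491. This order was not particular to the 5, of which 3 are annotated to the same genes. The median difference of all probe sets was 0.07 for PargB, 0.04 for PargC and 0.03 for PargA. Of all probe sets 12.8%, 7.24% and 5.32% had an unadjusted limma p under 0.05 in the same order, and none of the 5 did. The 3 comparisons share their WT embryos. Over fathers within a genotype, limma's F test called 0 of the 5 probe sets in WT (0% of all) and 0 of the 5 in Parg(110)-/+ embryos (0.00347% of all).

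Single Parg(110)-/+ embryos were also compared with the 9 WT embryos. In these 9 comparisons 0 of the 5 probe sets were called in any embryo. Of all probe sets 0.628% were called in PargA-1, 0.635% in PargA-2, 0.604% in PargA-3, 0.691% in PargB-2, 0.826% in PargB-3, 0.760% in PargC-1, 0.625% in PargC-2 and 0.843% in PargC-3. PargB-1 stood above them at 2.17%. That embryo was the highest of all in Zfp352 (a difference of 1.67 ± 1.41, SE, limma adjusted p = 0.827) and stood 0.77 ± 0.56 above WT in Tcstv3 (limma adjusted p = 0.762). The matching background came from tests of a WT embryo against the remaining 8, in which 0 of the 5 probe sets were called in any. These called 0.732%, 0.479% and 0.708% of all probe sets in the WT1 embryos, 0.930%, 0.680% and 0.600% in the WT2 embryos, and 1.15%, 0.732% and 0.569% in the WT3 embryos. Among the 5 probe sets an unadjusted limma p under 0.05 was reached in WT2-2 alone of all 18 embryos, by 2 of the 5. Of all 28815 probe sets, 1542 (5.35%) had such a p in that embryo. The 2 were 10549964 and 10559978, which are annotated to the same Zscan4 genes and are not independent. Its Zscan4 level by 10559978 differed by -1.02 ± 0.32 (SE) from the other WT embryos (limma adjusted p = 0.519).

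The 18 embryos also show whether these genes were high in the same embryos. They were not found to be. Over the 18 embryos Zscan4 (10559978) and Zfp352 had r = -0.292 (permutation p = 0.241) and rho = -0.265 (permutation p = 0.289). Zscan4 and Tcstv3 had r = -0.314 (permutation p = 0.209) and rho = -0.331 (permutation p = 0.180). Zfp352 and Tcstv3 had r = 0.306 (permutation p = 0.216) and rho = 0.443 (permutation p = 0.0673). With Benjamini-Hochberg adjustment over the 3 pairs, the permutation p was 0.241 for each r and 0.289, 0.270 and 0.202 for rho in the same order. None of the 3 relations passed 0.05 in either form.

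The permutations did not take account of fathers. With each father's mean subtracted, r was -0.260 for Zscan4 and Zfp352, -0.385 for Zscan4 and Tcstv3 and 0.0996 for Zfp352 and Tcstv3. Without subtraction, the r of Zfp352 and Tcstv3 was 0.477 when WT2-3 alone was left out and 0.239 when PargB-1 alone was. Within the genotypes the signs were those of the pooled values. The r of Zscan4 and Zfp352 was -0.316 in WT and -0.415 in Parg(110)-/+ embryos (n = 9 each), that of Zscan4 and Tcstv3 was -0.436 and -0.450, and that of Zfp352 and Tcstv3 was 0.373 and 0.171. Without the 2 embryos farthest from the median of the first gene, r was -0.272 for Zscan4 and Zfp352 and -0.134 for Zscan4 and Tcstv3 (both without WT3-1 and WT2-2), and 0.425 for Zfp352 and Tcstv3 (without WT1-3 and PargA-2). The negative r of Zscan4 and Tcstv3 rested in large part on WT2-2, low in the former and high in the latter, and was -0.118 without it alone.

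Counted by embryo, Zfp352 and Tcstv3 lay on the same side of their medians in 12 of 18 embryos, Zscan4 and Tcstv3 in 8, and Zscan4 and Zfp352 in 6. All 3 were above their medians in WT2-1, PargB-1 and PargB-3, and all 3 were below in WT3-2. The other 14 embryos had a mixed pattern. PargA-2 and WT1-3, the 2 lowest in Zfp352, were both above the median in Zscan4. The array median, the SD of the array and the mean of its dim probe sets correlated with Zscan4 and Zfp352 at r between -0.09 and 0.13 and with Tcstv3 at r between -0.29 and 0.21 (n = 18).

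**Figure D4:**
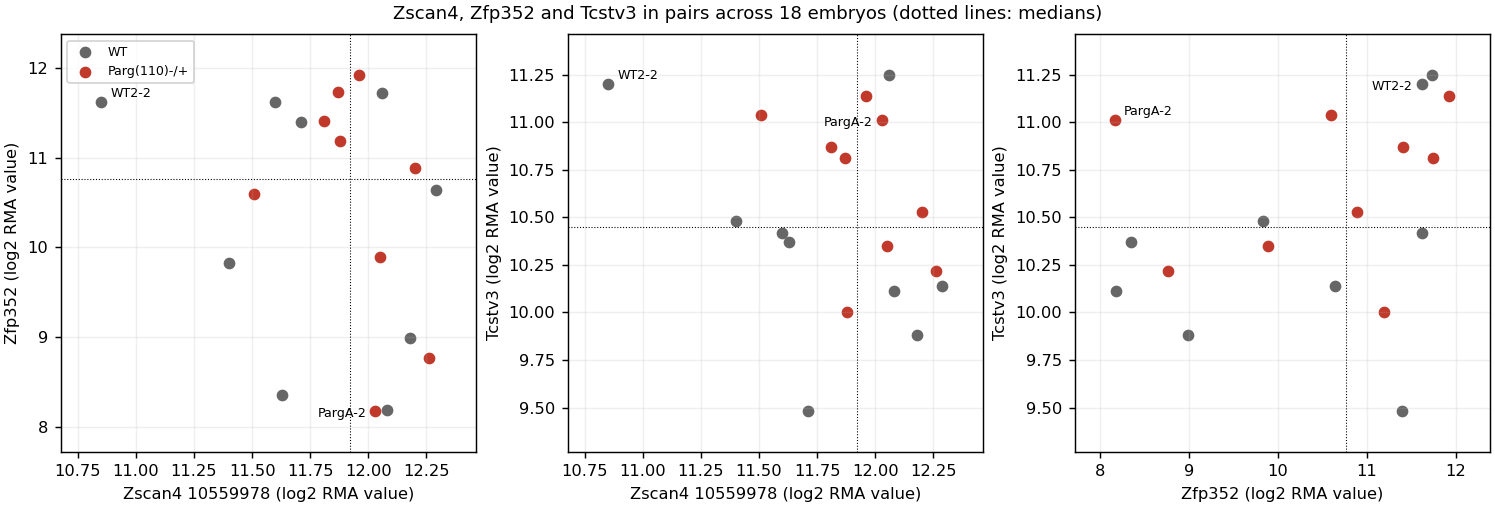
Log2 RMA values of Zscan4 (probe set 10559978), Zfp352 and Tcstv3 plotted against each other in 18 embryos, 1 point an embryo, with grey for WT and red for Parg(110)-/+ embryos and dotted lines at the medians. The points scatter over all 4 quadrants, with r = -0.292, -0.314 and 0.306 from left to right, and WT2-2 lies apart at the lowest Zscan4 value.

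Among 11316 bright probe sets with 1 gene, those most like Zscan4 over the 18 embryos were Zfp961 (r = 0.763), Pik3r4 (0.761), Zfp322a (0.760), 1700123O20Rik (0.719), Nsmce3 (0.714), Hmgn5 (0.682), Fam204a (0.678), Btf3l4 (0.668), Psmc1 (0.665) and Sf3b5 (0.662). Pik3r4 encodes a regulatory subunit of the class III PI3-kinase, Nsmce3 a subunit of the SMC5/6 complex, Psmc1 an ATPase of the proteasome and Sf3b5 a splicing factor subunit. Those that ran most opposite were Hipk2 (r = -0.809), Herc3 (-0.787), Tsx (-0.758), Ppp1r12b (-0.748) and Gm9785 (-0.739), where Hipk2 encodes a nuclear protein kinase. By rank the likeness was weaker for several of them, with rho from 0.472 (Sf3b5) to 0.794 (Pik3r4) among the 10 most like, 0.496 for Zfp961, and from -0.404 (Tsx) to -0.719 (Hipk2) among the 5 most opposite. These are the extremes of many correlations over 18 arrays, of which 98% lay between -0.533 and 0.525, and they are given as a description. None of the 15 was on the list of other 2-cell transient genes.

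That list held 53 gene symbols, of which 27 had a probe set of their own. None of the 27 was called by genotype, 13 were higher and 14 lower in Parg(110)-/+ embryos, 2 had an unadjusted p under 0.05, and the median difference was -0.04. The smallest unadjusted p values belonged to Gm7102 (0.18 ± 0.06, SE, limma adjusted p = 0.362), the pseudogene Zfp353-ps (0.26 ± 0.12) and Hmgb4 (0.15 ± 0.08). The genes of the list varied widely between embryos, with SDs from 0.13 to 1.85 and a median of 0.55. Gm5662 alone exceeded the SD of Zfp352, with an SD of 1.85 and values from 5.68 to 11.45, followed by Pramel6 (1.25) and Tdpoz3 (1.24), and these were named after their values were seen.

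The genes of this list showed no common relation to the level of Zscan4 or Zfp352. Of the 27 genes, 12 had an r above 0 with Zscan4 and 13 with Zfp352, where 51.55% and 50.36% of the 11316 bright probe sets did. With Tcstv3, 18 of 27 had an r above 0, against 51.93%. Chosen after their values were seen, BC147527 (r = 0.679), Tdpoz3 (0.646), Tdpoz1 (0.598) and Usp17lc (0.539) were the nearest to Tcstv3 among them. Usp17lc and Usp17ld, of a family of deubiquitinating enzymes, had r = -0.537 and -0.522 with Zscan4, and Pramel6 had r = 0.611 with it. No p was computed for these correlations, which share their arrays.

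Of 41 measured regulators of the 2-cell program, 0 were called by genotype, with 23 higher and 18 lower and a median difference of 0.03. By the smallest unadjusted p they were led by Trim28, the corepressor that silences retroviral elements (-0.42 ± 0.21, SE, limma adjusted p = 0.490), the chromatin remodeller Ep400 (0.23 ± 0.12) and the histone chaperone Hira (-0.28 ± 0.15). With Tcstv3, 17 of the 41 had an r above 0, against 51.93% of the bright probe sets, and the median r was -0.096. The genes named next were chosen after their values were seen. Chaf1b, a subunit of the chromatin assembly factor that represses the program, had r = -0.693 with Tcstv3 over the 18 embryos. The program's activator Dppa2 had -0.634 and the nuclear receptor gene Nr5a2 -0.589. In the other direction, Obox5 had 0.430 and Max 0.403, while Dppa4 had 0.018 and Chaf1a -0.341. Chaf1b was a dim probe set (mean 6.09).

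Of 32 measured genes for ZSCAN4 partners, telomeres and recombination, 0 were called, with 17 higher and 15 lower and a median difference of 0.01. The smallest unadjusted p was that of Blm, the helicase that resolves recombination intermediates, which was at 9.46 ± 0.44 in WT and 8.64 ± 0.49 in Parg(110)-/+ embryos (SD, n = 9). This was a difference of -0.82 ± 0.21 (SE, limma adjusted p = 0.362), and 1 of the 9 Parg(110)-/+ embryos lay above the WT mean. Rbbp4, a histone-binding subunit of several chromatin complexes, differed by -0.56 ± 0.16 (limma adjusted p = 0.362), and the histone deacetylase Hdac1 by -0.17 ± 0.08.

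Stored maternal transcripts and genes of the major genome activation were counted in the same way. Of 31 maternal oocyte genes 0 were called, with 23 higher and 8 lower and a median difference of 0.06, led by Lhx8 (0.38 ± 0.16, SE), Zp1 (-0.50 ± 0.25) and Ooep (0.51 ± 0.27). Of 19 measured genes of genome activation 0 were called, with 9 higher and 10 lower and a median difference of -0.04, led by Polr1b (-0.77 ± 0.27), Cdc25a (-0.67 ± 0.30) and Nop2 (-0.42 ± 0.20). Tcstv3 had an r above 0 with 29 of the 31 maternal genes and 4 of the 19 activation genes, Zfp352 with 24 and 5, and Zscan4 with 11 and 9. Of the 11316 bright probe sets 51.93%, 50.36% and 51.55% had an r above 0 with Tcstv3, Zfp352 and Zscan4. The signs thus split between the lists for Tcstv3 and Zfp352 and not for Zscan4, and no p was computed for this. These correlations share their 18 arrays and are a description.

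Most markers of other sources of RNA were higher in Parg(110)-/+ embryos, in each list a larger share than the 67.11% of all probe sets. The median difference of all probe sets was itself 0.05, and that of the bright ones 0.04. Most of these markers were dim, and they were not set against dim probe sets or recounted with equal array medians. The shares therefore do not show more RNA of these sources in Parg(110)-/+ embryos. For cumulus, granulosa and oviduct cells 16 of 18 were higher (median difference 0.09), and the mean level of the list ran from 6.19 to 6.43 in WT and from 6.26 to 6.55 in Parg(110)-/+ embryos. For blood cells 8 of 8 were higher (0.10), at mean levels of 5.34 to 5.60 and 5.51 to 5.66. For spermatids 14 of 15 were higher (0.06), at 5.90 to 6.19 and 6.03 to 6.25. None of these 41 markers was called, the smallest unadjusted p values belonging to Ptgs2, Has2 and Col1a2, to S100a8, Cd79a and Itgam, and to Prm1, Odf1 and Smcp, with differences between 0.09 and 0.18. Larger differences, with larger errors, were those of Krt18 (0.50 ± 0.26, SE), Inhba (0.43 ± 0.20) and Krt8 (0.33 ± 0.24), named after their values were seen. Each had its highest value in a different embryo, 8.44 in PargB-2 (Krt18), 8.42 in PargA-2 (Inhba) and 9.84 in PargB-1 (Krt8), and without that embryo the differences were 0.24, 0.24 and 0.09. RMA values have no true 0, and the part of these markers in the differences of the Zscan4, Zfp352 and Tcstv3 probe sets was not tested.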

How the data were processed

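Per the labels and the methods of the study, the authors deposited log2 values made by RMA in Partek (background correction, quantile normalization, log2 transformation, summarization of probe sets), with tool versions not given in the sources used here. Quantile normalization can reduce a change shared by most genes, and RMA compresses dim values. All 18 value columns were used, and 0 were left out. Genes and starts were named from the platform annotation and RefSeq (GRCm38.p6).

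Linear models were fitted to all 28815 probe sets with limma 3.58.1 in R 4.3.3 (lmFit, eBayes, two-sided, Benjamini-Hochberg over all probe sets, call at adjusted p under 0.1, the threshold of the methods). Single embryos were tested on the spread of the WT embryos, which assumes that the embryo tested varies as they do. Correlations used two-sided permutation tests with 100000 resamples (SciPy 1.17.1, NumPy 2.4.6, Python 3.11.15). Each listed gene entered through its brightest probe set.

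All 5 probe sets are described. From each list the 3 genes with the smallest unadjusted p were named, and the 10 most and 5 least like Zscan4. The probe sets and lists were chosen with earlier results of these data known. Whether embryos of 1 father are independent is not known, and the consensus correlation of limma between them was -0.02. The p values of the main fits measure the spread between embryos and not that between the 3 fathers of each genotype. The alternatives were equal array medians, a second quantile normalization, the father as a random block, means per father, array weights, the methods' one-way test, dim probe sets left out, limma with trend (comparisons by father) and leaving out embryos or fathers. The number of arrays limits the precision.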

Additional observations from a re-analysis of the deposited data

How the results depend on the processing

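None of the 5 probe sets was called by genotype under any of the 31 alternatives, and the smallest adjusted p of limma among their 155 alternative differences was 0.414 (10549972 without WT1-3). With means per father in place of embryos, 1 of the 5 had an unadjusted limma p under 0.05, where 2205 of all probe sets did. The difference of 10549972 was then 0.23 ± 0.08 (SE, limma adjusted p = 0.642). Likewise 1 of the 5 had an unadjusted limma p under 0.05 without WT1-1, without WT3-3 and without father WT2. Of all probe sets 2472, 2886 and 2381 did in these settings. It was 10549972 without WT1-1 and without WT3-3, and Tcstv3 without father WT2 (0.43 ± 0.18, SE). The Zfp352 difference changed direction 4 times, to -0.012 without WT1-3, -0.085 without father WT1, -0.079 without father WT3 and -0.20 without father PargB. Leaving out 1 embryo at a time it ran from -0.012 to 0.54, and it reached 0.91 without father WT2. The Zscan4 and Tcstv3 differences stayed above 0 in all 31, from 0.08 to 0.30 (10559978), 0.15 to 0.30 (10549964), 0.16 to 0.28 (10549972) and 0.18 to 0.43 (Tcstv3, lowest without father WT1). The median of all probe sets moved from 0.05 to -0.01 with equal array medians. The 3 correlations kept their sign and none passed the threshold. The causes were not tested. No paired analysis was possible because the embryos of the 2 genotypes have different fathers and share no replicate number. How many arrays there were sets the precision.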
